A study of Mus musculus with 7 samples.

Results

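The replication-dependent histone genes supply the bulk of the histones that package newly made DNA. In the mouse they lie in tight clusters of short genes without introns, and the members used here were the protein-coding genes of GENCODE (GRCm38) whose symbols start with Hist1h, Hist2h, Hist3h or Hist4h. There were 67 such genes of 21938 protein-coding genes, 54 in Hist1 on chromosome 13, 10 in Hist2 on chromosome 3, 2 in Hist3 on chromosome 11 and 1 in Hist4 on chromosome 6. Accessible regions were assigned to them when the midpoint of the region lay within 1000 bp of one of their transcription start sites (TSSs). This gave 58 member regions of 119215 regions in all, of which 16393 lay at the TSS of some protein-coding gene.

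The regions came from ATAC-seq, in which a transposase cuts and tags open DNA, of mammary tumour cells from mice that carried the MMTV-PyMT transgene, expressed from a mammary tumour virus promoter, and a transgene that marks expression of the Notch ligand Dll1 with mCherry. Cells with the lineage markers CD45, CD31 and ter119 had been removed by sorting, and the remaining cells were split into mCherry-positive (Dll1+, n = 3 samples) and mCherry-negative (Dll1−, n = 4 samples) cells. The samples came from 4 tumours, 3 of which gave both populations, and the label of every sample carried the PyMT and reporter transgenes. Cells were freshly isolated from spontaneous tumours, and ages were not given in the sources used here. The deposited values were 1 pooled peak list for each population, so no difference between the lists could be set against the spread between samples and no test was made. In a pool of cells, fewer open cells and less accessibility per cell cannot be told apart.

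Each histone class has its own role. Pairs of the core histones H2A, H2B, H3 and H4 form the nucleosome, and the linker histone H1 binds the DNA where it enters and leaves. Transcription of these genes rises with DNA replication, is organised at a nuclear body around the coactivator NPAT, and gives mRNAs that end in a conserved stem-loop bound by SLBP instead of a poly(A) tail. Many H2A and H2B genes stand head to head, so that 1 short stretch of DNA is the promoter of both.

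The question put to the lists was whether these genes were called, ranked and crowded alike in both populations. The labelled cell type was checked first. All 6 luminal epithelial markers had a promoter region in both lists. None of the 3 basal markers (Krt5, Krt14, Trp63) had one. Of the markers of other cells reported here, the leukocyte gene Csf1r and the fibroblast gene Pdgfrb had a region in the Dll1− list only, Kdr and Pdgfra had one in both, and Ptprc, Cd3e, Pecam1, Cdh5, Klf1 and Col1a1 had none. The lists differed in depth. The Dll1+ list held 132872 rows on a genome-wide background of 3.74 reads and the Dll1− list 148923 rows on a background of 7.20 reads.

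The sequences between the starts of head-to-head genes are shown first, because each is the promoter of 2 genes. The examples are the pair with the most reads, a pair from Hist2 and a pair without an octamer. They are printed on the plus strand of GRCm38, 5′ to 3′, from the base after the start of the left gene to the base before the start of the right gene. Capitals mark, on either strand, the TATA box (TATAAA), the CCAAT box (CCAAT), the octamer (ATTTGCAT), the GC box (GGGCGG), the core of the H4 gene element (GGTCCG) or the H1 box (AAACACA). The first lay at chr13:23683949-23684198, the second at chr3:96220881-96221118 and the third at chr13:22042945-22043213.
Hist1h2ac to Hist1h2bc: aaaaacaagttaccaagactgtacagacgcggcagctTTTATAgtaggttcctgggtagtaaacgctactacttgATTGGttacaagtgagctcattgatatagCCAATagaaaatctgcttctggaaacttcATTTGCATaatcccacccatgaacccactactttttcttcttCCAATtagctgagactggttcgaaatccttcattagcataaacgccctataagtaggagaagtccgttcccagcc
Hist2h2ac to Hist2h2be: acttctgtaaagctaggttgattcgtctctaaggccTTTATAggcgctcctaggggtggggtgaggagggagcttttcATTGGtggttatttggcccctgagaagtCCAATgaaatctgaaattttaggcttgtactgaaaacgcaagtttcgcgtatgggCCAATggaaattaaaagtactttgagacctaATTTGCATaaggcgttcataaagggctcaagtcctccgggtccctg
Hist1h2ag to Hist1h2bj: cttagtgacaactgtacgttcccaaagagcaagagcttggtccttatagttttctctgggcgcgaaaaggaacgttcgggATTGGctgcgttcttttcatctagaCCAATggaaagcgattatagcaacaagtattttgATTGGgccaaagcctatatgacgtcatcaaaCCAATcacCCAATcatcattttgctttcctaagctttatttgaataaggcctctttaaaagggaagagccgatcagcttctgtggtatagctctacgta
Both the first and the second hold an octamer, CCAAT boxes and a TATA box close to the left gene, and of these strings the third holds CCAAT boxes only.

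Promoters of H4, H1 and H3 genes stand alone in most cases and read differently. For H4, the last 100 bases before the start are given for the member with the highest Dll1+ rank in Hist1 (Hist1h4c, chr13:23698455-23698554, minus strand) and for the lowest (Hist1h4i, chr13:22041363-22041462, minus strand). Both hold GGTCCG, the core of the element read by the H4 gene activator HINFP. For H1, the 250 bases before Hist1h1c (chr13:23738558-23738807, plus strand) hold the H1 box AAACACA. For H3, the last 100 bases before Hist1h3d (chr13:23575663-23575762, plus strand), the gene with the largest rank difference between the lists, hold CCAAT boxes and a TATA box.
Hist1h4c: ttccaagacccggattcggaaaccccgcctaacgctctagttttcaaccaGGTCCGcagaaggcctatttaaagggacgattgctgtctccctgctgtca
Hist1h4i: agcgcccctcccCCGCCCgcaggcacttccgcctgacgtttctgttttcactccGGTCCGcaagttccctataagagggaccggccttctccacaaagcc
Hist1h1c: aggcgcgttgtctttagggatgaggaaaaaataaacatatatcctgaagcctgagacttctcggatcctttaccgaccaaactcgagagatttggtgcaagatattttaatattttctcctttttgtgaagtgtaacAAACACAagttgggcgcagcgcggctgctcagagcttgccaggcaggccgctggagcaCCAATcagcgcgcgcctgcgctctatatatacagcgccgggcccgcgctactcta
Hist1h3d: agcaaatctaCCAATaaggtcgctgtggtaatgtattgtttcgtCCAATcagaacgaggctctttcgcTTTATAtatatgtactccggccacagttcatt

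Counted over all members in the window from 250 bases before to 50 bases after the start, most of these strings were more frequent than in other promoters. The TATA box was present in 37 of 67 members (55.2%) and in 12.6% of all protein-coding promoters. The CCAAT box was present in 56 members (83.6%) against 39.0%. It was found in 18 of 18 H2A and 18 of 18 H2B genes, in 11 of 12 H3 genes and in 4 of 13 H4 genes.

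The octamer, the binding sequence of POU factors such as Pou2f1, was present in 15 members (22.4%) against 1.57% of all promoters. It was found in 8 of 18 H2B genes and 7 of 18 H2A genes, and its letters were not found in these windows of the H1, H3 and H4 genes. GGTCCG was present in 12 of 13 H4 genes (92.3%) against 9.60% of all promoters. The H1 box was present in 4 of 6 H1 genes against 6.40%.

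The E2F consensus TTTNGCGC was present in 14 members (20.9%), 7 of them H2A and 7 H2B genes, against 1.66% of all promoters. The GC box GGGCGG was present in 41.8% of members and 43.0% of all promoters in this window, and in 67.2% and 49.3% in a window from 500 bases before to 100 after the start. Median GC content of the window was 45.3% in members and 55.0% in all promoters. A head-to-head pair can share a match, because its windows overlap.

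The 3′ ends carried the stem-loop. The consensus stem-loop string was found within 150 bases of the annotated 3′ end of 36 of the 67 members (53.7%). Of all 21938 protein-coding genes 36 had it (0.164%), so that every match was at a member. Examples from H2A, H2B, H4 and H3 genes are printed in the sense strand, with the stem-loop in capitals. They lay at chr13:22035120-22035149 (minus strand), chr13:22036293-22036322 (plus strand), chr13:23531451-23531480 (plus strand) and chr3:96269128-96269157 (plus strand).
Hist1h2ah: tcccaaaGGCTCTTTTCAGAGCCacacaca
Hist1h2bk: caccaaaGGCTCTTTTAAGAGCCactaaac
Hist1h4h: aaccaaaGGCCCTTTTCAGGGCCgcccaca
Hist2h3b: ccacaaaGGCTCTTTTCAGAGCCacctacg

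Most histone genes were called accessible in both populations. A region was present at 57 of 67 members in the Dll1+ list, against 61% of all protein-coding genes, and at 54 of 67 in the Dll1− list, against 63.7% of all. Both lists called 54 members, against 60.4% of all protein-coding genes. By class, both lists called 3 of 6 H1 genes, 14 of 18 H2A genes, 15 of 18 H2B genes, 11 of 12 H3 genes and 11 of 13 H4 genes. These counts include Hist1h2be, through the region of Hist1h1e, and Hist2h3c2, whose Dll1+ and Dll1− regions do not overlap. By cluster, a region was present in either list at 45 of 54 Hist1 genes, 9 of 10 Hist2 genes, both Hist3 genes and the single Hist4 gene.

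Strength was ranked by the deposited fold enrichment, the reads at a summit over the local background, as the percentile of the strongest row of a region among all rows of its list. The range among members was wide. The highest rank belonged to the head-to-head pair Hist1h2ah and Hist1h2bk, at the 98.3 percentile of the Dll1+ list and the 98.8 percentile of the Dll1− list. Among genes called in both lists, the lowest rank in the Dll1+ list was that of the H4 gene Hist1h4i (13.3 and 31.3), and the lowest in the Dll1− list was that of the H2A gene Hist1h2ab (20.2 and 24.9). The plot of gene percentiles shows both values of every member.

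**Figure D1:**
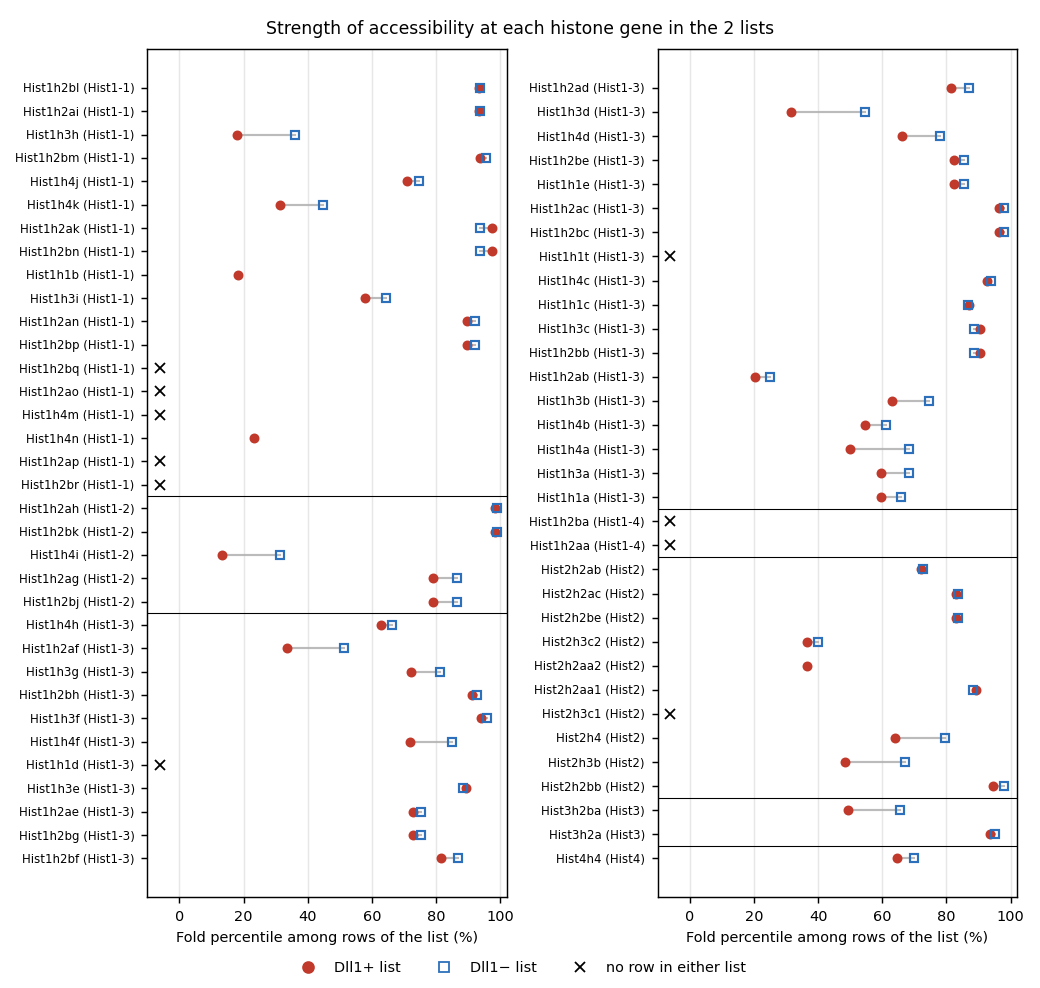
Percentile of fold enrichment of the strongest row at each of the 67 histone genes (rows, in genomic order within each cluster) among all rows of the Dll1+ list (red circles) and the Dll1− list (open blue squares), with a cross for the 10 genes without a region. Head-to-head H2A and H2B genes share 1 value and sit at the right, whereas many H3 and H4 genes have a lower percentile in the Dll1+ list than in the Dll1− list.

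Gene classes differed in rank. The median percentile of the genes called in both lists was 90.6 (Dll1+) and 92.2 (Dll1−) for 15 H2B genes, and 86.02 and 87.6 for 14 H2A genes. It was 82.2 and 85.6 for 3 H1 genes, 64.0 and 69.9 for 11 H4 genes, and 59.6 and 68.3 for 11 H3 genes. Among H1 genes, Hist1h1c was highest at 87.1 and 86.8. Hist1h1b was lowest, at 18.3 in the Dll1+ list, with no Dll1− row in the region assigned to it. Dll1− rows still covered 15.6% of the body of Hist1h1b, outside that region. The lowest core histone ranks of the other classes in Hist1 were 20.2 and 24.9 at the H2A gene Hist1h2ab, and 72.8 and 75.3 at the H2B gene Hist1h2bg. Among H3 genes in Hist1 the range in the Dll1+ list was from 17.9 at Hist1h3h to 94.0 at Hist1h3f, and among H4 genes from 13.3 at Hist1h4i to 92.7 at Hist1h4c.

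Among genes with a region, the head-to-head arrangement went with the higher ranks. Within 1000 bp there were 13 head-to-head pairs, 12 of an H2A and an H2B gene and 1 of an H2B and an H3 gene. The 20 genes of the pairs with a region had a median percentile of 90.3 (Dll1+) and 92.5 (Dll1−), and medians of 299 and 420 reads at the strongest summit. The 37 other genes with a region had medians of 63.1 and 73.6 in percentile, and of 146 and 259 reads. Every paired gene with a region stood at or above 72.8 in the Dll1+ list, whereas single genes reached down to 13.3. The H2A and H2B genes of a pair share their region and are not independent of each other. All H1 and H4 genes were single, so this contrast overlaps that between classes, and the part of either was not tested. Single H2A and H2B genes ranged from 20.2 (Hist1h2ab) to 94.5 (Hist2h2bb) in the Dll1+ list. A region was present at 76.9% of the 26 paired genes and at 90.2% of the 41 single genes.

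The largest number of reads was found at Hist1h2ac and Hist1h2bc, whose shared promoter is the first sequence printed above. It held 454 reads (Dll1+) and 675 (Dll1−), on local backgrounds of 24.6 and 34.2 reads. The Hist2 pair Hist2h2ac and Hist2h2be, which shows the same kinds of string, held 145 and 216 reads on backgrounds of 12.2 and 19.7. Their fold percentiles were 96.3 and 97.8 in the first case, and 82.9 and 83.5 in the second. The pair Hist1h2ag and Hist1h2bj, whose sequence shows no octamer, held 212 and 357 reads at percentiles of 79.0 and 86.6.

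The remaining members of the small clusters were as follows. In Hist2, the H2B gene Hist2h2bb ranked highest, at 94.5 (Dll1+) and 97.95 (Dll1−), followed by the H2A gene Hist2h2aa1 (89.2 and 88.4) and the pair Hist2h2ac and Hist2h2be given above. The H2A gene Hist2h2ab stood at 72.2 and 72.7. The neighbouring H3 gene Hist2h3c2 and H2A gene Hist2h2aa2 shared a Dll1+ only region at 36.4, and Hist2h3c2 had a Dll1− only region at 39.8. The H4 gene Hist2h4 stood at 64.0 and 79.4, values from 2 different regions, and the H3 gene Hist2h3b at 48.4 and 66.96. The region over the start of Hist2h4 stood at 64.0 and 70.8, and its other region at 58.6 and 79.4. In Hist3, the H2A gene Hist3h2a stood at 93.6 and 94.998, and the H2B gene Hist3h2ba at 49.3 and 65.7. Hist4h4 stood at 64.7 and 69.9. In every cluster, H2A or H2B genes held the top rank, apart from Hist4, which has no such gene.

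As a set, histone regions ranked lower by fold than other promoters and higher by reads. The median fold percentile of member regions was 63.1 (Dll1+) and 74.5 (Dll1−), against 81.6 and 82.9 over all promoter regions. Ranked by the reads at the summit, recovered from the deposited fold and −log10 p-value, the medians were 89.2 and 91.2, against 85.9 and 87.1 over all promoter regions. The read rank exceeded the fold rank in 51 of 55 member regions of the Dll1+ list (92.7%, against 55.9% of promoter regions) and in 46 of 51 of the Dll1− list (90.2%, against 56.3%). Whether histone promoters stood below or above other promoters thus turned with the measure.

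Fold is the reads divided by the local background, each with 1 read added, and that background was high at histone genes. Its median at member regions was 18.6 reads (Dll1+) and 29.6 reads (Dll1−), or 4.97 and 4.11 times the genome-wide value of the list. Over all promoter regions it was 2.93 and 2.53 times. The median number of reads at the summit was 145 and 245 in member regions, against 123 and 192 over all promoter regions. By cluster the background was highest at the lone gene Hist4h4, at 8.45 and 6.76 times the genome-wide value. It was 4.97 and 4.33 times in Hist1 sub-cluster 1, 4.96 and 4.17 times in sub-cluster 2, 5.65 and 4.44 times in sub-cluster 3, 3.20 and 2.74 times in Hist2, and 2.38 and 2.00 times in Hist3. Sub-clusters of Hist1, numbered along the chromosome, were split where neighbouring starts lay over 100 kb apart.

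**Figure D2:**
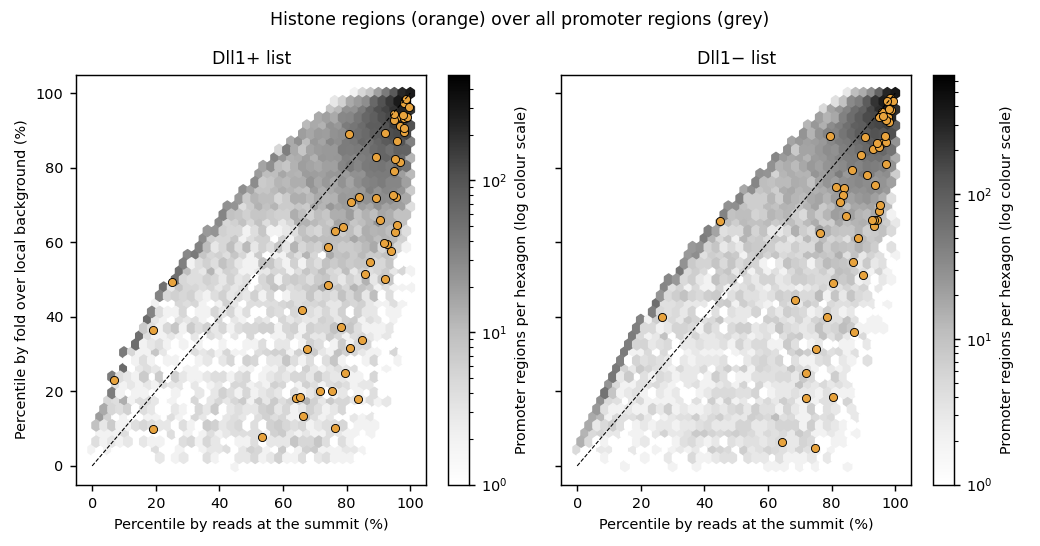
Percentile by fold over local background (vertical axis) against percentile by reads at the summit (horizontal axis) for member regions (orange circles, n = 55 in the left panel, Dll1+, and n = 51 in the right panel, Dll1−) over all promoter regions (grey hexagons, darker for more regions). Most histone regions lie below the dashed line of equal rank, with high read rank and lower fold rank.

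Accessible regions were crowded around histone genes. Within 25 kb of a member region lay a median of 9 other regions, with a range from 2 to 18, against a median of 4 around all promoter regions. At least 9 neighbours were present at 35 of 58 member regions (60.3%) and at 13.9% of promoter regions. At least 15 were present at 8 member regions (13.8%) and at 0.653% of promoter regions. Ribosomal protein promoters had a median of 5 neighbours and Hox promoters, another clustered family in which 17 of 39 genes had a region, a median of 3.

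Crowding differed along Hist1. Sub-cluster 3, of 29 genes in 235 kb of chromosome 13 (23530050 to 23764666), held 44 regions, or 18.8 per 100 kb, against 4.37 per 100 kb in the genome. Of these 44, 28 lay at member starts, 1 at the start of Hfe and 15 elsewhere. Sub-cluster 1, of 18 genes in 119.6 kb (21715143 to 21834743), held 15 regions, or 12.5 per 100 kb. Sub-cluster 2, of 5 genes in 9.65 kb (22034568 to 22044214), held 5. Median neighbours within 25 kb were 5, 11.5 and 11 in sub-clusters 1, 2 and 3, and 9 in Hist2.

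The most crowded members, with 18 neighbours each, were the stretch from Hist1h4h over Hist1h2af and Hist1h3g to the region of Hist1h2bh and Hist1h3f. The least crowded was the region of the linker histone gene Hist1h1e, with 2 neighbours, followed by those of Hist1h4k, of Hist1h2ak with Hist1h2bn, and of Hist1h4n, with 3 each. Within 100 kb the medians were 21 for member regions and 18 for all promoter regions. By sub-cluster the 100 kb median was 35.5 in Hist1 sub-cluster 3, which holds 28 of the 58 member regions, and 17 in sub-cluster 1. Member regions had a median of 7 gene starts within 25 kb, against 1 for all promoter regions, and the 161 other promoter regions with at least 7 gene starts nearby had a median of 8 neighbours, close to the 9 of the members.

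**Figure D3:**
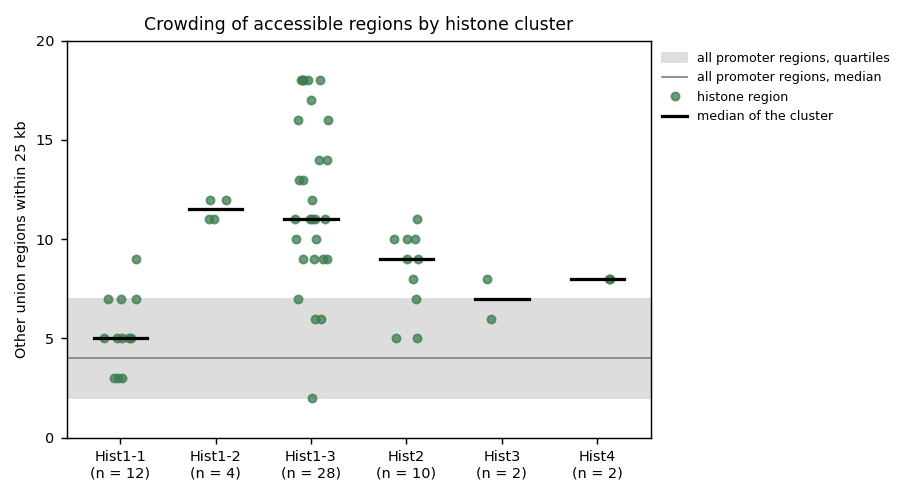
Number of other union regions within 25 kb (vertical axis) for each histone region (green points, n = regions per cluster on the horizontal axis) with the cluster median (black bar), over the median (grey line) and quartiles (grey band) of all promoter regions. Hist1 sub-cluster 3 reaches 18 neighbours, and sub-cluster 1 overlaps the band of all promoter regions.

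Histone regions were called in both lists in 48 of 58 cases (82.8%), against 86.9% of promoter regions. Regions called only in the Dll1+ list numbered 7 (12.1%), where 3.15% of all promoter regions fell in that class, and regions called only in the Dll1− list numbered 3 (5.17%), against 9.98% of promoter regions. By fold, all 10 stood below the median of their list. The 7 Dll1+ only regions had fold percentiles from 7.83 to 36.4 and held 16 to 82 reads, and 4 of them, those with 46, 59, 61 and 82 reads, stood above the median of 43 reads of the list. Of the 3 Dll1− only regions, those with 85 and 115 reads stood above the median of 61 reads. When only rows above the median fold of their own list were used, 1 of 41 member regions was called only in the Dll1+ list (2.44%, against 2.27% of promoter regions), and 12.2% were called only in the Dll1− list (promoters 7.74%).

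These Dll1+ only regions were spread over the clusters. They lay at the H1 gene Hist1h1b, at Hist1h4n, beside the shared regions of Hist1h2ah and Hist1h2bk, of Hist1h2bh and Hist1h3f, and of Hist1h4b, and as 2 regions at Hist2h3c2 and Hist2h2aa2. Of the 7, 3 lay within 500 bp of a Dll1− row. The Dll1− only regions lay at Hist1h3i (85 reads), Hist2h3c2 (37 reads) and Hist4h4 (115 reads), the last 350 bp from a Dll1+ row. With rows also joined across gaps of up to 500 bp, a choice made after seeing the data, 3 of 43 member regions were Dll1+ only (6.98%) against 1.47% of promoter regions.

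In rank, shared histone regions stood lower in the Dll1+ list. The median difference in fold percentile, Dll1+ minus Dll1−, was −4.94 points over 48 member regions and −1.83 points over all shared promoter regions. It was at least 10 points lower in the Dll1+ list in 14 of 48 (29.2%), where 15.3% of promoter regions were, and at least 10 points higher in 1 of 48, where 4.57% of promoter regions were. That one was a second, weaker region beside Hist1h2an and Hist1h2bp (51.6 against 39.9).

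By gene, taking its strongest row in each list, the largest differences were at H3 and H4 genes. Hist1h3d had a percentile of 31.7 (Dll1+) and 54.7 (Dll1−), a difference of −23.0 points, with 100 and 189 reads. Hist2h3b (−18.5), Hist1h4a (−18.2), Hist1h3h (−18.1) and Hist1h4i (−18.0) followed. In the other direction the largest was +3.78 points, at the pair Hist1h2ak and Hist1h2bn (97.5 against 93.7), followed by Hist1h2bb at +1.96 and Hist1h3e at +1.01. The rule also gives Hist1h3c the region of Hist1h2bb, but the region over the start of Hist1h3c itself stood at 37.1 against 49.2, a difference of −12.0 points. Ranked by reads instead of fold, the median difference was −0.32 points, against −1.52 over promoter regions, and 8.33% of member regions lay at least 10 points lower, against 15.4% of promoter regions.

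The reads themselves, scaled so that the median over all shared regions is 0 on the log2 scale, did not show the lower Dll1+ level. The median log2 ratio of Dll1+ to Dll1− reads was 0.06 over the 48 member regions, with a range from −0.52 to 0.61, and −0.06 over shared promoter regions. It was above 0 in 30 of 48 member regions (62.5%) and in 42.3% of promoter regions. Counting intervals (95%, exact binomial, counting error only) held 0 at 41 regions, lay above 0 at 5 (10.4%, against 11% of shared promoter regions) and below 0 at 2 (4.17%, against 18%). Scaled by the genome-wide background of each list, the median was 0.30, against 0.19 over promoter regions.

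The share of intervals above 0 was thus near that of other promoters, and that of intervals below 0 was lower. The regions of either kind are given as a description. The pair Hist1h2ak and Hist1h2bn had 305 reads (Dll1+) and 325 (Dll1−), a log2 ratio of 0.61 (interval 0.38 to 0.84). The others were the second regions beside Hist1h2an with Hist1h2bp (0.59) and Hist1h2ac with Hist1h2bc (0.56), the region of Hist1h3c and Hist1h2bb (0.36), and that of the linker histone gene Hist1h1c (0.32). Below 0 were 2 regions of Hist2, a region of Hist2h4 (−0.52, interval −0.91 to −0.13) and that of Hist2h2bb (−0.32, interval −0.56 to −0.08). By gene, the ratio was above 0 at 40.4% of all protein-coding genes with a value, at 17 of 20 genes of head-to-head pairs and at 19 of 34 single genes. By class it was above 0 at 3 of 3 H1, 12 of 14 H2A, 12 of 15 H2B, 3 of 11 H3 and 6 of 11 H4 genes. A region shared by a head-to-head pair counts for each of its genes here. The gene ratio takes the most reads of each list, which lay in different regions at Hist1h3a, Hist2h3c2 and Hist2h4. Hist1h3a, for example, stood at −0.18 by gene, and the region over its start at 0.04.

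**Figure D4:**
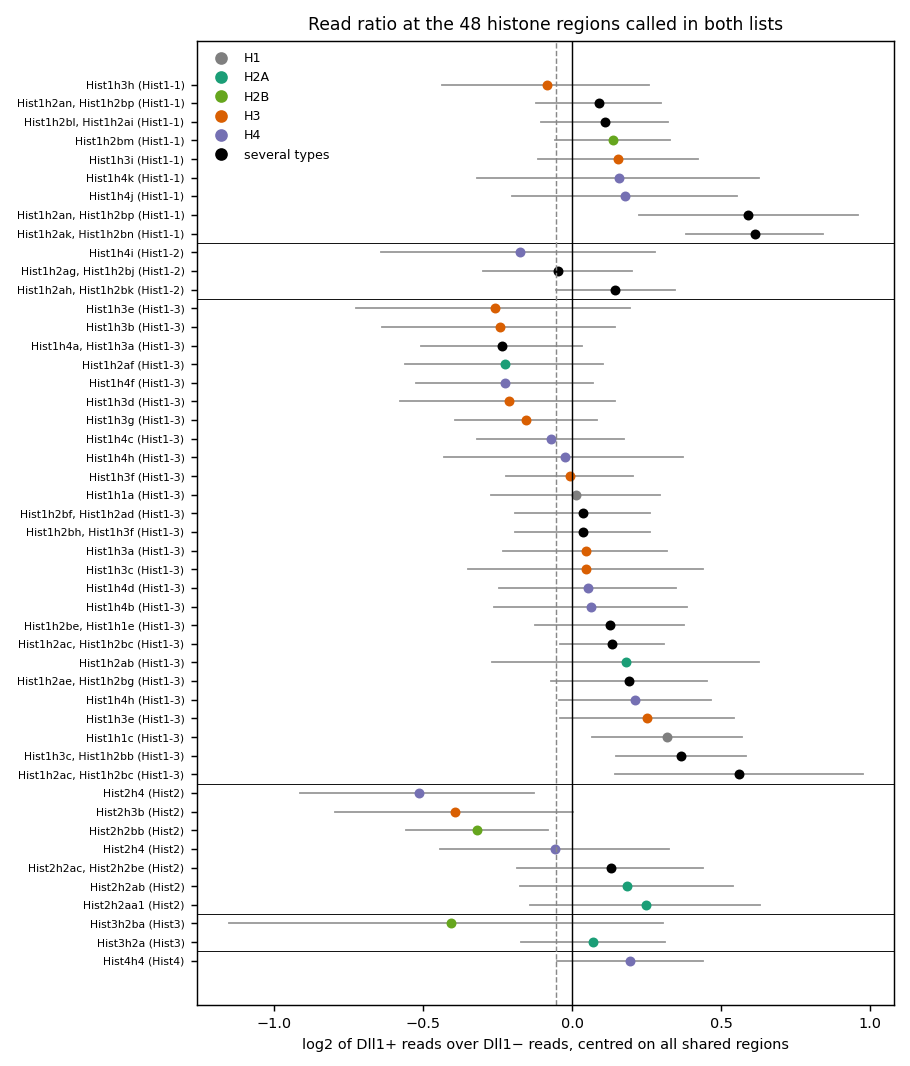
Log2 ratio of Dll1+ to Dll1− reads at the strongest summit (horizontal axis, 0 is the median over all shared regions, dashed line the median over shared promoter regions) for the 48 histone regions called in both lists, with 95% counting intervals (grey bars) and colours for the histone class. The intervals of 41 regions cross 0, and the ratios run from −0.52 at Hist2h4 to 0.61 at Hist1h2ak and Hist1h2bn.

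Repeated sequence moved with this ratio. Histone genes resemble each other, and a read that matches several places may be dropped or assigned to one of them, so the share of 50-base words that occur more than once in the genome was counted for each region. In the 9 shared regions without such words the median log2 ratio was −0.23, with 3 above 0. In the 28 regions with up to 20% of repeated words it was 0.05, with 17 above 0, and in the 11 regions with more it was 0.14, with 10 above 0. Spearman's rho over the 48 regions was 0.55 and Pearson's r was 0.47. The points share both pooled lists and neighbouring promoters. The fold percentiles followed the same order, with medians of 58.6 and 65.97 without repeated words, and of 89.5 and 92.2 above 20%. Most of the 11 regions were those of head-to-head genes, so arrangement and repeated sequence cannot be told apart here, and the part of either in these differences was not tested.

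The outline of the accessible stretch differed between the lists in the same places. At the start itself 77.6% of the 67 members lay in a region in both lists, against 52.7% (Dll1+) and 54.6% (Dll1−) of all genes. At 200 bp after the start, inside the short coding sequence, the Dll1+ list held 30 members (44.8%) and the Dll1− list 17 (25.4%), while all genes stood at 48.2% and 49.3%. At 500 bp before the start it was 24 members (35.8%) and 14 (20.9%), against 17.9% and 17.3%. Farther downstream the order turned, and at 1000 bp after the start 13.4% (Dll1+) and 20.9% (Dll1−) of members lay in a region, against 9.62% and 10.1% of all genes.

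Split by sequence, the difference was larger in repeated bases. Within 500 bp of the starts of the 57 members with a region, 30.7% of bases were centred on a repeated 50-base word. The Dll1+ list covered 46.2% of these bases and the Dll1− list 24.3%. Of the other bases the lists covered 68.0% and 62.8%. The part of read mapping in this was not tested.

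**Figure D5:**
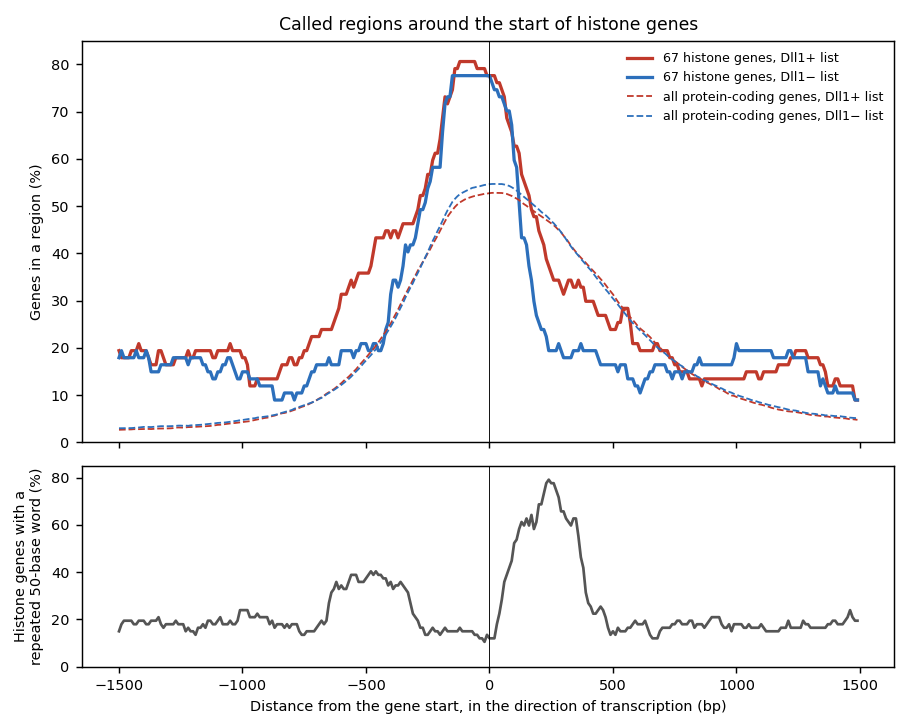
Top, share of the 67 histone genes (solid lines) and of all protein-coding genes (dashed lines) whose base at each distance from the start, in the direction of transcription, lies in a region of the Dll1+ list (red) or the Dll1− list (blue). Bottom, share of histone genes whose 50-base word centred there is repeated in the genome. The lines of the lists part at histone genes near 200 bp after and 500 bp before the start, where repeated words are frequent, and run together at the start.

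The summits of histone regions lay upstream of the start. The strongest summit had a median offset of −76 bp in the Dll1+ list (57 genes) and −82.5 bp in the Dll1− list (54 genes), against −11 and −13 bp over all genes. It fell in the 250 bp before the start in 47 of 57 genes (82.5%) and 41 of 54 genes (75.9%), against 47.3% and 47.8%. These are the bases that hold the CCAAT boxes, octamers and GGTCCG strings printed above. Some summits lay far from the start. Those of the linker histone genes Hist1h1c and Hist1h1e lay 975 and 848 bp after the start in the Dll1+ list and 970 and 843 bp in the Dll1− list. That of Hist4h4 lay 558 and 544 bp after the start, and that of Hist1h3c lay at −972 and −981 bp. In the Dll1− list but not the Dll1+ list, the strongest summit also lay over 500 bp downstream at Hist1h3a (1129 bp), Hist2h3c2 (962 bp), Hist2h4 (909 bp) and Hist1h4h (701 bp). That of Hist1h3a lay in the region it shares with Hist1h4a, so its Dll1− rank is that of its neighbour. Regions covered 87.2% (Dll1+) and 82.6% (Dll1−) of the body of Hist1h1c, and 96.5% and 93.4% of that of Hist1h1e. Member regions were narrow, with a median width of 477 bp against 847 bp over all promoter regions.

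In all, 10 members had no region in either list, where 85.1% of members and 64.3% of all protein-coding genes had one. Of these, 3 were the genes known from testis, the linker histone gene Hist1h1t and the pair Hist1h2ba and Hist1h2aa, whose nearest regions lay 1636, 5171 and 5477 bp from the start. Repeated words made up 0%, 13.7% and 0.84% of their windows. Hist1h2ba and Hist1h2aa form sub-cluster 4, which held 0 regions.

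Of the others, 6 were near-identical copies. Repeated words made up at least 90% of the window in 8 members, and only 2 of these, Hist1h4n and Hist2h3c2, had a region, against 55 of the 59 other members. Hist1h2bq and Hist1h2br shared 100% of their words within 500 bp of the start with each other, as did Hist1h2ao and Hist1h2ap. Hist1h4m and Hist1h4n shared 94.2%, and Hist2h3c1 and Hist2h3c2 94.7%. Reads from one such copy match the other as well, and the part of this in the missing calls was not tested.

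The head-to-head promoters of these copies can be read directly. That of Hist1h2bq and Hist1h2ao lay at chr13:21810198-21810464, and that of Hist1h2ap and Hist1h2br at chr13:21833508-21833742. All 235 bases of the second occur unbroken in the reverse complement of the first (267 bases).
Hist1h2bq to Hist1h2ao: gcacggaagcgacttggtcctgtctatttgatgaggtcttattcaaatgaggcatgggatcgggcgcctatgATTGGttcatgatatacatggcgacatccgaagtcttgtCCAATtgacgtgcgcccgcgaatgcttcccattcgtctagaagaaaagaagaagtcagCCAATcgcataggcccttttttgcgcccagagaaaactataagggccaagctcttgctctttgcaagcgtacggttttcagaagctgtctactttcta
Hist1h2ap to Hist1h2br: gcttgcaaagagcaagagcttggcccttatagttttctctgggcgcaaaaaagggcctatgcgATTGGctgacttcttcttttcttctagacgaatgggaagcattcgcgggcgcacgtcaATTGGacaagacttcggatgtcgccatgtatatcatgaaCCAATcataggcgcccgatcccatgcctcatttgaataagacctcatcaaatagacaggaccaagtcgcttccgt
Both hold the CCAAT boxes of the called pairs.

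The last of the 10 was the linker histone gene Hist1h1d. Its GENCODE model starts 1770 bp upstream of its RefSeq start, and the RefSeq start lay inside a called region. With RefSeq starts, a choice made after seeing the data, 58 members had a region and 9 had none. Of the 67 members, 61 had a start in the RefSeq promoter table (GRCm38.p6), 51 of them within 50 bp of the GENCODE start. The GENCODE model began at the first coding base in 11 members and had more than 1 start in 4. For Hist1h2be the outer start lies at Hist1h1e, whose region it was given.

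The genes that transcribe and process histone mRNAs were open in both lists. All 15 of a list chosen for these steps, with the coactivator Npat, the stem-loop binding protein Slbp, the U7 snRNP proteins Lsm10 and Lsm11, and the H4 activator Hinfp, had a promoter region in both lists, as did 60.4% of all protein-coding genes, at median percentiles of 92.6 and 93.2. The log2 read ratio was above 0 in 2 of 15 (all genes 40.4%), with a median of −0.13, below the −0.06 of all promoters. The only one with a percentile difference of at least 10 points was the cap-binding protein gene Ncbp1 (67.03 against 84.6, with 57 and 153 reads). Npat itself stood at 98.3 and 98.98 with 442 and 726 reads.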

How the data were processed

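ATAC-seq was measured in 7 samples of sorted tumour cells. Per the paper's methods, the authors called peaks with ENCODE's pipeline for this assay, once per population on its pooled replicates, and deposited the optimal set. The aligner, peak caller and their versions are not given in the sources used here. The build, mm10 (GRCm38), comes from the submitters' processing notes. Each deposited row held an interval, a score, a signal value that is a fold over local background, a −log10 p-value, a −log10 q-value and a summit position. The score and q-value were not used. A later step of the authors with salmon and DESeq2 was not analysed here.

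Rows of both lists were merged where they overlapped or touched. The deposited fold and −log10 p-value were solved for whole reads and local background under a Poisson model. All rows were recovered in the Dll1+ list and all but 1 in the Dll1− list, within 0.02 on the −log10 scale. Read ratios were centred on the median of all shared regions. Genes came from GENCODE, the sequence from GRCm38 and promoter starts from RefSeq. Of 67 members, 66 matched RefSeq by synonym. Repeated words were counted on both strands. Intervals are exact binomial and cover counting error only. Per-sample depth is not held in pooled lists, so depth is given as the background reads of a list.

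Members and gene lists were chosen with earlier results of these data known. Named were all members of Hist2, Hist3 and Hist4, the highest and lowest member of each type in Hist1, members without a row in a list, the 5 largest percentile differences each way, the 3 most and 3 least crowded regions and the testis genes. Of the lists of other genes, those without a region in a list or with a difference of at least 10 points were named, and further genes were named as examples after their values were seen. Some marker genes of other cell types are not reported here. Scripts were tested on simulated data. Python 3.11.15, numpy 2.4.6, pandas 2.3.3, scipy 1.17.1, numba 0.67.0 and matplotlib 3.10.9 were used.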

Additional observations from a re-analysis of the deposited data

How the results depend on the processing

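Over 24 results and 80 alternatives, 58 values moved by less than the criterion set for them, 21 moved further and 1 changed sign. Regions called only in the Dll1− list fell to 0% of members (7.16% of promoter regions) with midpoints within 500 bp of a start. Those called only in the Dll1+ list fell to 2.44% (promoters 2.27%) with rows above the median fold. Ranked by −log10 p, the median percentiles were 85.02 (Dll1+) and 88.2 (Dll1−) and the median difference −0.79 points. Ranked by reads they were 89.2 and 91.2, and the difference was −0.32 points. On that ranking 8.33% of regions lay at least 10 points lower, against 15.4% of promoter regions. Without repeated 50-base words the median percentiles were 45.6 and 64.0 (12 regions each), and the difference was −12.0 points (9 regions). Of these 9, 55.6% lay at least 10 points lower, against 15.3% of all shared promoter regions. The log2 read ratio turned to −0.23. Scaled by background the log2 ratio was 0.30. The median number of neighbours was 4 within 10 kb, 21 within 100 kb, 14 and 13 when rows of the Dll1+ or Dll1− list were counted, 6 with rows above the median fold, and 7 with gaps of up to 500 bp joined, an alternative chosen after seeing the data. The GC box was found in 67.2% of members and 49.3% of all promoters in a window from 500 bases before to 100 after the start. Apart from fewer regions and other ranking values, the cause was not tested. No paired analysis was possible because each list pools the samples of a group, and for the same reason no sample could be left out. Pooling also means that a difference between lists has no replicate check.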

Other observations

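The histone genes expressed outside S phase, which supply variants such as H3.3 and H2A.Z, form no clusters. All 11 on the list had a promoter region in both lists, as did 60.4% of all protein-coding genes, at median percentiles of 84.3 (Dll1+) and 88.3 (Dll1−). The log2 read ratio was above 0 in 2 of 11, against 40.4% of all genes with a value, with a median of −0.16. The linker histone genes H1fx and H1f0 stood lower in the Dll1+ list, H1fx at 41.9 against 60.1 with 22 and 60 reads, and H1f0 at 65.9 against 76.3 with 98 and 215 reads. H2afy2, which encodes a macroH2A, stood at 13.0 and 28.8, and the H3.3 gene H3f3b at 61.8 and 75.3. The centromeric H3 gene Cenpa had the highest rank of the list, at 99.7 and 99.8.

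The 7 histone chaperone genes all had a region in both lists, where 60.4% of all genes had one, at medians of 93.9 and 93.5, and none differed by 10 points or more. Their log2 read ratio was above 0 in 4 of 7, against the same 40.4%. Ribosomal protein genes, another large family used by all cells, had a region at 76 of 76 genes, at medians of 91.1 and 91.9, with the ratio above 0 in 18 of 76.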
